A study of Mus musculus with 6 samples.

Results

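Pax5 was profiled across the genome of pre-B cells by ChIP-seq, and the peaks that the authors called against a pre-B input are described here outside the Vκ region, which runs from the first to the last Vκ gene on chromosome 6. The whole list holds 15445 peaks, of which 15407 lie outside the Vκ region and 38 inside it were left out. The 3 lists of these cells hold 108027 regions, once the touching bins of the H3K4me3 list are joined. The cells were RAG-/-µ+ pre-B cells, taken from the bone marrow of male and female C57BL/6 mice aged 6 to 14 weeks. These mice have no RAG recombinase but bear an IgM transgene that is already rearranged, which makes the cells a model of pre-B cells whose Vκ genes stay unrearranged. H3K27ac, which marks active promoters and enhancers, and H3K4me3, which marks active promoters, were profiled in the same cells. Each profile comes from 1 library, so the values below have no replicate check and no test. The deposited list gives each peak's position and a score from the peak caller but no read counts, so depth is unknown.

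Pax5 is a transcription factor with a paired domain that commits progenitors to the B cell lineage. It activates genes of the B cell receptor complex and of B cell transcription factors, and it represses genes of other blood lineages. Its paired domain contacts a long and variable DNA site, of which the words GCGTGAC and GCATGAC, called here the G and A forms of the core, are a common part.

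These words are best seen in the peaks themselves. The peaks over 10000 bp from any protein-coding start were searched in order of score for a core word within 150 bp of the peak's midpoint, and the sequence with 8 bases on both sides is shown for 8 of them, with the core in capitals. They were picked for holding the word, and are shown to let its flanks be compared. All are mm9, 5′ to 3′ on the strand given, and named by the protein-coding gene with the nearest start. The class is that of the peak's midpoint in any protein-coding gene, not only the one named. The peaks named by Tbc1d7 and Sdhb, for example, lie inside Gfod1 and Padi2.
1700008O03Rik (chr7:51615704-51615726, + strand, coding exon): cgcagcagGCGTGACcgcgtctg
Enpp6 (chr8:48026793-48026815, - strand, intergenic): tagccagaGCGTGACctgcttta
Gpr12 (chr5:147499775-147499797, - strand, intergenic): ctcagtaaGCGTGACctcatgtc
Tbc1d7 (chr13:43305162-43305184, - strand, intron): gggcactgGCGTGACgctttgtg
Sdhb (chr4:140500866-140500888, - strand, intron): agaagagtGCATGACcatctcag
Gm239 (chr10:116183924-116183946, + strand, intergenic): tcctttctGCATGACtggcagac
Cnr1 (chr4:33956529-33956551, + strand, intergenic): gcatccgaGCATGACagaaagac
Mrps6 (chr16:92038460-92038482, + strand, intergenic): acacgagaGCGTGACtgagtggg

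Their scores run from 2919.59 at 1700008O03Rik to 1496.47 at Mrps6, and the core lay 19 to 101 bp from the midpoint. The same search among peaks within 1000 bp of a start gave these 4, which cover a start and scored 1810.11 to 2111.45. Junb encodes a subunit of the AP-1 transcription factor, Swi5 a recombination repair protein, Clcn3 a chloride transporter and Ascc3 a helicase.
Junb (chr8:87500579-87500601, - strand, intergenic): atgtgcaaGCATGACcccgccca
Swi5 (chr2:32143711-32143733, - strand, coding exon): gaaacccaGCGTGACctaccttc
Clcn3 (chr8:63462192-63462214, + strand, intergenic): agcgatggGCGTGACcagggcgt
Ascc3 (chr10:50312557-50312579, + strand, UTR): gcgctaagGCGTGACagcgagcg

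The core words stood at the middle of the peaks. Words were counted on both strands in the central 300 bp of each peak. The G form was present in 5.72% of peak centres, against 0.548% of windows of the same length 2000 bp to either side and 0.534% of 300 bp tiles placed every 10 kb across the sequenced genome. Of the 45962 windows from 250 bp before to 50 bp after a protein-coding transcript start, 2.55% held it. The A form was present in 4.07% of centres, 2.11% of the flanks, 2.15% of tiles and 1.6% of the promoter windows. A longer word, CANNNNNGCNTGAC, which overlaps the core and in which N is any base, was in 2.3% of centres, 0.62% of flanks, 0.598% of tiles and 0.696% of promoter windows. Either core word was in 9.65% of centres, so most centres held none of these exact letters, which says nothing about other forms of the site.

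The 2 forms were spread differently over the list. Within 1000 bp of a start the G form was in 5.88% of centres and the A form in 1.71%, below the 2.1% of the flanks of these peaks. More than 10000 bp from a start the G form was in 5.73% and the A form in 6.49% of centres, with 0.55% and 2.06% in the flanks. Both forms therefore stood above their flanks in the distal peaks, and of the 2 forms the G form alone did so near starts. The G form contains the pair CG, and the observed to expected ratio of this pair was 0.752 near starts and 0.235 in distal peaks. The comparison with flanks did not account for base composition. Of the promoter windows, 5.5% of those with a peak and 1.02% of those without held the G form, and 1.31% and 1.75% the A form.

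The share of centres with a core word varied with the score, and not in the same way for both forms. Among the 25% of peaks with the highest scores it was 11.2%, and among the 25% with the lowest scores 8.7%. The G form was in 7.68% and 4.41% of these centres and the A form in 3.66% and 4.39%. Among the 100 highest-scoring peaks of the list 9 centres held a core word, a share just below the 9.65% of all peaks. Among the 100 highest-scoring peaks over 10000 bp from a start, 20 centres held a core word and 17 whole peaks held the longer word, while among all 5361 such peaks 12% of centres held a core word and 6.21% of whole peaks the longer word. Among the 10 highest-scoring peaks of the list, 6 held a core word somewhere in the peak, and 1 held it in its centre. Somewhere in the peak, 41 of the 100 highest-scoring peaks and 19.8% of all peaks held one. High-scoring peaks were wider, with a median of 1226.5 bp in the highest 25% against 966 bp over the list. Counts over whole peaks, also those of the longer word, were therefore not made at equal length.

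**Figure D1:**
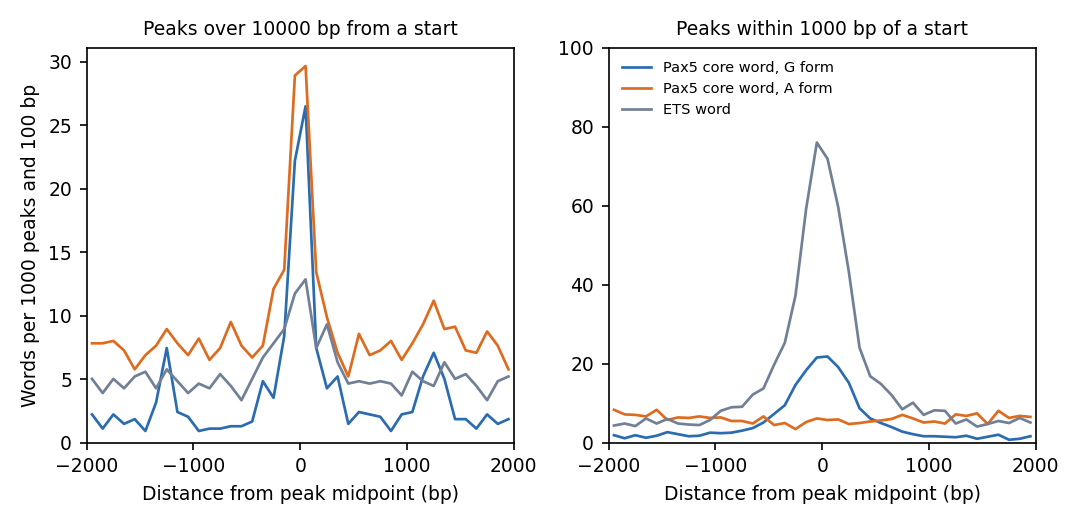
Number of core words per 1000 peaks and 100 bp of sequence, plotted against the distance from the peak midpoint (bp), for peaks over 10000 bp from a start (left) and within 1000 bp (right); the lines are the G and A forms of the Pax5 core and the word CCGGAAG of ETS factors. In the distal peaks the 100 bp after the midpoint held 26.49 G forms and 29.66 A forms per 1000 peaks, and near starts the ETS word reached 76 in the 100 bp before the midpoint.

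In the distal peaks of this profile the G form also stood at 7.461 and 7.088 words per 1000 peaks in the bins from 1200 to 1300 bp on either side. Without the peaks in repeated sequence, which are defined further on, these bins held 1.996 each and the 2 bins beside the midpoint held 22.55 and 27.14.

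Words of other factors separated promoter peaks from distal peaks. CCGGAAG, bound by ETS factors, was in 17.1% of the centres near starts and 3.06% of the distal ones, with 0.839% of tiles. GGGGCGGGG, bound by Sp1 and related factors of GC-rich promoters, was in 17.2% and 2.56%, with 0.509% of tiles. The words of NRF1 (GCGCA joined to TGCGC), YY1 (AAGATGGCG) and CREB-type factors (TGACGTCA) were in 1.58%, 3.63% and 2.64% of centres near starts and in 0.224%, 0.336% and 0.634% of distal centres. These words are common in promoters: CCGGAAG was in 10.9% and GGGGCGGGG in 14.6% of all promoter windows.

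Several words of B cell factors, and a word of CTCF, were more frequent in distal centres than in their flanks. So were the ETS and Sp1 words above, with 1.26% and 0.727% in these flanks. CAGCTG, an E-box bound by E2A and related factors, was in 31.8% of distal centres, 13.7% of their flanks and 17.1% of the centres near starts. GAGGAAGT, bound by PU.1, was in 5.86% of distal centres and 1.83% of their flanks. TCCC and GGGA with 2 bases between them, bound by EBF1, was in 2.15% and 0.774%. TGTGGTT, bound by Runx factors, was in 11.4% and 7.15%, and CAGGTG, another E-box, in 27.4% and 23%. A word of CTCF, made of CCAC, AGG and GGC with 1 base in each gap, was in 1.19% of distal centres, 0.14% of their flanks and 0.0793% of tiles.

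The word of Ikaros and that of IRF factors were less frequent in distal centres than beside them. TGGGAA, bound by Ikaros, was in 20.5% of distal centres and 27.3% of flanks, and a pair of GAAA with 2 bases between them, bound by IRF factors, in 3.92% and 4.24%. TGACTCA, bound by AP-1, was in 5.97% of distal centres and 5.04% of flanks.

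Words of 8 bases were then counted without a list of factors, in the central 200 bp and in windows of that length 2000 bp away. In the peaks within 1000 bp of a start the leading words, ranked by the ratio of the shares, were runs of G and C, such as GCCGCCGC in 13.6% of centres and 0.264% of flanks. In the distal peaks outside repeated sequence the leading words held the G core or a part of it. GCGTGACC and AGCGTGAC, which hold all of it, were in 2.18% and 2.1% of centres and in 0.0998% and 0.17% of flanks. ACCGTGAC, with CGTGAC in common with the G core, was in 2.1% and 0.11%. GCAGCTGC, which holds the E-box CAGCTG, was in 3.55% and 0.659%.

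Over all distal peaks, however, the leading word was AATCAACC, which was in 5.54% of centres and 0.42% of flanks. This word belongs to a sequence that is repeated in the genome. Its most frequent surroundings are shown from a peak in an intron of the gene Glcci1 with a score of 424.62, with the 8 bases in capitals.
Glcci1 (chr6:8491697-8491726, - strand): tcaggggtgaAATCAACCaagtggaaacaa
These 30 bases occurred at 10721 places in the assembly and in 88 peaks.

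Repeated sequence was therefore measured in every peak. Runs of 31 bases were taken every 20 bp and counted over the whole assembly, and a peak was called repeated where at least 50% of its runs were found at more than 3 places. This was so for 422 peaks, or 2.74%. Of all sampled runs in peaks 2.87% were found at more than 3 places, against 13.7% of runs on the 10 kb grid of the genome. The study kept only reads with no more than 3 best positions, so sequence at more places could gather few reads. The lower share in peaks therefore cannot show where Pax5 binds. The same limit bears on the width, score and mark overlap of the repeated peaks. The repeated peaks were narrow, with a median width of 643.5 bp, and scored low, with a median of 121.89 against 211.85 for the other peaks. Their GC content was 38.5% in the median, and 11.1% of them overlapped H3K27ac, against 81.3% of the others. They made up 0.182% of the 25% of peaks with the highest scores and 6.05% of the 25% with the lowest.

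The peaks had a median width of 966 bp, with quartiles at 777 and 1263 bp, and together covered 16.45 Mb, or 0.643% of the sequenced genome. Only 298 peaks were narrower than 500 bp and 536 were wider than 2000 bp. Peaks within 1000 bp of a start were wider, at 1118 bp in the median, than those over 10000 bp away, at 815 bp. Width and score went together, with a Spearman rho of 0.456 over the peaks, 0.459 near starts and 0.376 in the distal peaks. Both measures come from the same reads, and peaks are not independent replicates. The median width was 797 bp in the 25% of peaks with the lowest scores and 1226.5 bp in the 25% with the highest.

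**Figure D2:**
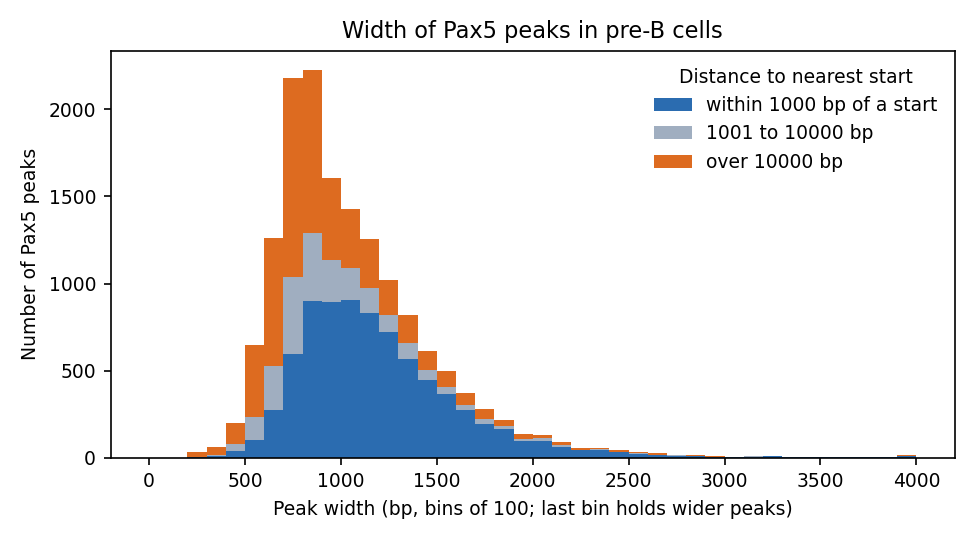
Number of Pax5 peaks (y axis) by width in bins of 100 bp (x axis, the last bin holds all wider peaks), with the bars stacked by the distance from the peak's nearest edge to a protein-coding transcript start. Peaks over 10000 bp from a start had a median of 815 bp and those within 1000 bp a median of 1118 bp.

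The widest peaks were of several kinds. The widest, 9205 bp near the end of chromosome X, lay 3971 bp from a start of the gene model Gm17379 and scored 913.42. The next, of 8612 bp, covered a start of Sp140, a nuclear body protein of lymphoid cells, and scored 96.17, near the lowest score of the list, 87.87. In it 80.2% of the sampled runs were at more than 3 places, and in the peak of 5760 bp at A530032D15Rik 77% were. Those of 7421 and 7102 bp lay side by side 10347 and 3064 bp from Fcgr3, which encodes an Fc receptor, overlapped neither histone mark, and held runs found at 3 places in the median. Just below these 5, the peaks at Jund, Junb and Klf2 were 5756, 5068 and 4675 bp wide, covered starts, scored 2254.32, 2111.45 and 1179.31, and overlapped both marks.

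The scores ran from 87.87 to 3214.14 with a median of 207.87, and 652 peaks scored above 1000. The highest peak covered a start of Pabpc1, which encodes the poly(A)-binding protein, with a score of 3214.14. The next, of 3135.99, lay 140 bp from Csf2ra, a cytokine receptor gene annotated at the end of chromosome 19. Then 4 peaks shared a score of exactly 3100: at the start of Dnpep, an aminopeptidase; at the start of Jun, an AP-1 subunit; 9609 bp from a start of Sykb, the annotated name of Syk, the kinase that acts below the B cell receptor; and 22305 bp from Map3k7, a kinase of NF-κB signalling. Among those below them were 1700008O03Rik (2919.59), BC031781 (2778.72) and Pnrc1 (2696.76).

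All of the peaks named here overlapped H3K27ac, and 5 of them covered a start. In the peak near Map3k7, 43% of the runs were at more than 3 places, and it overlapped H3K27ac but not H3K4me3.

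Over 10000 bp from a start, high scores beside those at Map3k7 and 1700008O03Rik were found between genes and inside gene bodies. An intergenic peak 21603 bp from Vwf, which encodes a clotting factor, scored 2379.19. Next to each other, 33593 and 35599 bp from the gene model BC107364, stood peaks of 2275.59 and 2026.27, and one of 2180.93 lay 34566 bp from Adra2c, an adrenergic receptor gene. The peaks nearest to starts of Rnf41, Ttll11 and 2510003E04Rik, which scored 2061.18, 2056.03 and 2039.54, had their midpoints in gene bodies. All of these overlapped H3K27ac, and those near BC107364 and Adra2c also overlapped H3K4me3. The one at Ttll11 held the longer Pax5 word, shown here with the word in capitals, 556 bp from the midpoint.
Ttll11 (chr2:35755462-35755491, - strand, intron): catggggcCAGGCAAGCATGACcaaaccac

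The peaks gathered at transcript starts. Of the 15407 peaks, 7087 (46%) covered a start of a protein-coding transcript and a further 689 (4.47%) had their nearest edge 1 to 1000 bp from one, which makes 50.5% within 1000 bp. By midpoint 48.6% lay within 1000 bp of a start, while 2.3% of the sequenced bases do, a ratio of 21.1. Within 500 bp the ratio was 37.1, within 10000 bp 3.64 and within 100000 bp 1.51. The remaining peaks were spread over 2270 (14.7%) up to 10000 bp away, 4486 (29.1%) between 10000 and 100000 bp away and 875 (5.68%) beyond. The median distance over all peaks was 840 bp, and over the peaks more than 1000 bp away it was 20801 bp.

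Midpoints were slightly more often inside the transcript than before it. Of the midpoints within 1000 bp, 4235 (56.5%) were downstream of the start and 3256 (43.5%) upstream, and the median stood 19 bp downstream. Density fell steeply on both sides, from 607 midpoints per 100 bp in the 500 bp before a start and 782 in the 500 bp after it to 44.2 and 63.2 in the next 500 bp. Of the peaks within 1000 bp of a start, 1029 (13.2%) lay that near to starts of genes on both strands.

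**Figure D3:**
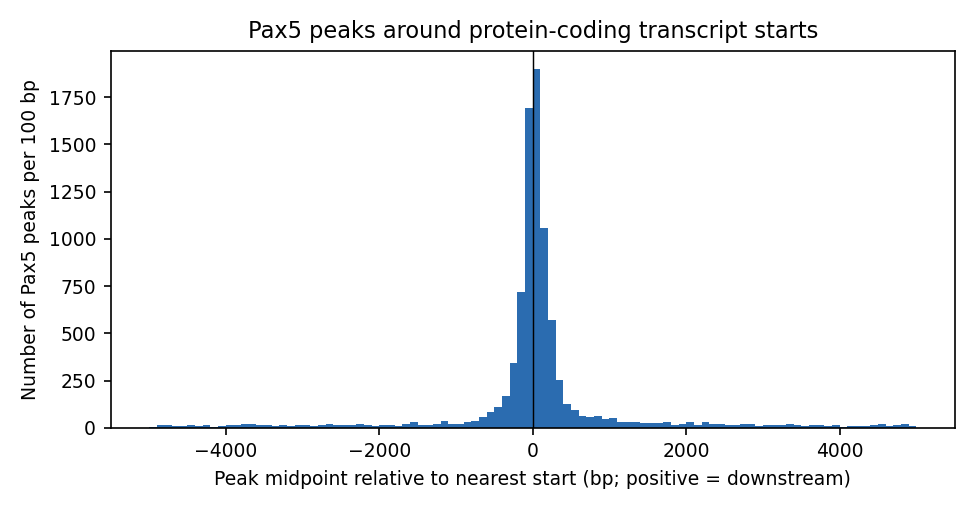
Number of Pax5 peak midpoints per 100 bp (y axis) against their position relative to the nearest protein-coding transcript start (x axis, bp, positive values downstream). Midpoints average 607 per 100 bp in the 500 bp upstream and 782 in the 500 bp downstream.

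Peaks at starts and away from them differed in score, base composition and histone marks. The median score was 264.8 for peaks that cover a start, 163.1 for those 1 to 1000 bp away and 155.63 for those over 100000 bp away. GC content was 59.6% in the median near starts and 48.2% in the distal peaks, with 41.8% over all sequenced bases. The ratio of observed to expected CpG was 0.752 and 0.235. H3K27ac overlapped 92.2% of the peaks that cover a start, 71.4% of those between 1000 and 10000 bp away, 68% of those between 10000 and 100000 bp away and 58.7% of those beyond. H3K4me3 overlapped 98.1%, 34.6%, 23.3% and 14.2% of the same classes. Over 10000 bp from a start, 31.7% of peaks overlapped neither mark.

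In the distal peaks, H3K27ac went with the score. When the whole list was divided into 10 equal parts by score, 86.6% of the 351 distal peaks in the highest part overlapped H3K27ac, and 51.4% of the 733 in the lowest did. Distal peaks made up 22.8% of the highest part and 47.6% of the lowest. The comparison was not made at equal width. Over all peaks of these parts, the median width was 1319 bp in the highest and 774 bp in the lowest. Peaks in repeated sequence made up 0.13% and 7.21% of them.

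By midpoint, 4308 peaks (28%) were in exons of protein-coding genes, 4830 (31.3%) in introns and 6269 (40.7%) between genes. Exons are 3.01% of the sequenced bases, introns 35.7% and intergenic sequence 61.2%, so the ratios were 9.28, 0.877 and 0.664. UTRs had the highest ratio, with 18.2% of midpoints on 1.25% of bases, or 14.6, and coding exons had 6.11. Of the exonic peaks 89.1% lay within 1000 bp of a start, as did 36.9% of the intergenic and 33.6% of the intronic ones. Of the peaks farther from a start, 42% were in introns, 51.8% intergenic and 6.15% in exons. Among these the median scores were close to each other, at 172.605 in introns and 173.15 between genes.

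Chromosomes with many genes held many peaks. The density was 6.02 peaks per Mb of sequenced bases over the genome and ran among the autosomes from 4.19 on chromosome 14 to 10.5 on chromosome 11, followed by 10 on chromosome 19 and 9.01 on chromosome 17. Over the 19 autosomes, peaks per Mb and protein-coding genes per Mb had a Pearson r of 0.841 and a Spearman rho of 0.867, which describes chromosomes of 1 library. Counted per 100 protein-coding genes, chromosome 11 held 75.6 peaks against 68.9 over the genome, chromosome 12 the most with 91.1, and chromosome 7, which has the highest density of genes, 51.1.

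Chromosome X stood apart with 258 peaks, 1.59 per Mb, which is 0.264 times the density of the genome, and 27.7 per 100 genes. Its peaks had a median score of 157.43, below the lowest autosomal median of 194.895 on chromosome 14, and 60.5% were within 1000 bp of a start. H3K27ac overlapped 73.6% and H3K4me3 69.8% of them, against 79.4% and 61.1% over the list. The longest stretch without a peak was 19.1 Mb on chromosome X, which holds 48 protein-coding genes. The labels do not say how many of the mice were of either sex. Chromosome Y, with 2.703 Mb of sequence in the assembly, held none.

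**Figure D4:**
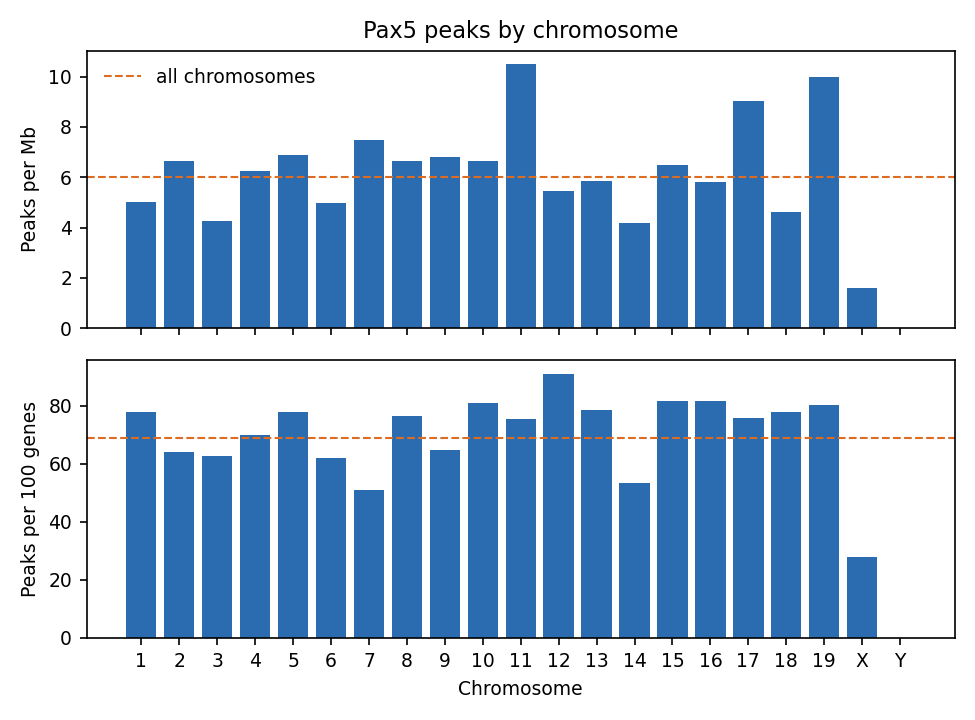
Pax5 peaks per Mb of sequenced bases (upper panel) and per 100 protein-coding genes (lower panel) for each chromosome; the dashed lines are the values over all chromosomes, 6.02 and 68.9. Chromosome X is low on both scales, at 1.59 and 27.7.

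Most peaks stood alone. The median gap between neighbours was 40328 bp, and 3233 gaps (21%) were 10000 bp or less. When peaks with a gap of at most 10000 bp were joined, 9907 peaks (64.3%) remained single, 2190 clusters held 2 to 4 peaks, and 77 clusters held 5 or more, with 443 peaks (2.88%). Peaks in these 77 clusters were less often within 1000 bp of a start than single peaks, 30.9% against 55.3%, and more often overlapped H3K27ac, 89.6% against 76.1%. Their median scores were near each other, at 215.51 and 207.23.

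The cluster with most peaks, 9 in 44.75 kb of chromosome 8 near Gas8, differed from the others. All 9 were in repeated sequence, with runs at 47.5 places in the median, a median width of 280 bp and scores of 98.18 to 321.69, and none overlapped either mark. The next 5 held 8 peaks each and no repeated peak. One on chromosome 11 spanned Tmem107, Vamp2 and Per1, a clock gene, with 5 peaks near starts and a highest score of 1941.19. Another on chromosome 11 spanned Plxdc1, Arl5c and Cacnb1. One on chromosome 13 lay in the large histone gene cluster, with 7 peaks near starts, and one on chromosome 19 ran from Syvn1 to Cdca5, with 6. The last lay on chromosome 8 in 31.18 kb without a gene, nearest to Tomm20, with no peak near a start and a highest score of 1370.55. All 8 peaks of each overlapped H3K27ac, except at Plxdc1, where 7 did.

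Genes were ranked by the peaks in the gene and the 10 kb on both sides, a window called the gene window here. Of 22367 protein-coding genes, 11619 (51.9%) had at least 1 peak, 291 had 5 or more and 10 had 10 or more. Genes with more peaks were longer: the median length was 9.32 kb for genes without a peak, 92.5 kb for those with 5 or more and 217 kb for those with 10 or more. Neighbours also share peaks, since 31.4% of peaks fell in the windows of 2 or more genes and 16.7% in none.

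The first 2 places went to gene models of unusual length. Gm20388, a model of 4430 kb on chromosome 8 that spans many other genes, held 117 peaks, or 2.63 per 100 kb, and Fgfr2, annotated over 3010 kb of chromosome 7, held 36, or 1.19 per 100 kb. Over all gene windows the density was 1.34. Neither count can be given to 1 gene.

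The other 13 genes of the first 15 had 9 to 12 peaks. Mtss1, which encodes an actin and membrane regulator, and Eif4e3, a cap-binding protein, had 12 each. Eif4e3 is annotated over 409 kb and overlaps Foxp1, and 0 of its peaks lay within 1000 bp of its starts. Sgms1, a sphingomyelin synthase, had 11. With 10 each followed Katnal1, related to the microtubule-severing katanin; Erg, an ETS factor of blood stem and progenitor cells; Ptprj, a receptor phosphatase; Rftn1, a lipid raft protein of B cells; and Zmiz1, a transcriptional coactivator. Sema4b, Cyth1, Tns3, Cradd and Ebf1 had 9 each, as had Arid1b and Ets1, which came after them by the sum of the scores. At 8 of the 13 every peak overlapped H3K27ac, and the others were Sgms1 with 10 of 11, Erg with 9 of 10, Ebf1 with 7 of 9, and Tns3 and Cradd with 6 of 9. Ebf1 is the B cell factor that acts upstream of and together with Pax5; 6 of its 9 peaks lay in the gene itself, which spans 391 kb, and 2 were within 1000 bp of a start. The densities ran from 2.19 per 100 kb at Ebf1 to 15.1 at Sema4b, whose highest peak scored 1703.57.

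Ranked by density among genes with 5 or more peaks, short genes in gene-rich stretches came first, and all 10 had 20.9 to 26.3 peaks per 100 kb. Arl5c, which encodes a small GTPase, had 7 peaks in its window at 26.3 per 100 kb, 1 of them in the gene itself. Ifi30, a lysosomal reductase of antigen processing, had 6 in its window at 24.6 and 0 in the gene itself. Fau, a ribosomal protein gene, Gm11029, Mpv17l2, Zfp36, which encodes an mRNA decay factor, Nr2f6, Ocel1, Nprl2 and Vamp2 followed. Of these, Nr2f6 and Ocel1 held 3 peaks each in the gene itself and the others 1 each. Mpv17l2 shared its stretch with Ifi30, and Nr2f6 and Ocel1 shared 6 peaks with a summed score of 2983.38. Below these 10 stood Rab3a, Mrpl49 and then Cd79a, a subunit of the B cell receptor. Cd79a had 5 peaks in its window at 20.1 per 100 kb, 1 of them in the gene itself.

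In the gene groups that belong to the cell type, most genes had a Pax5 peak near a start. This was not particular to them, since 93.3% of the housekeeping genes and 69.4% of all genes with H3K4me3 at a start had one. The lists were chosen with earlier results of these data known, so their shares are descriptions only. Of the 26 genes listed as activated by Pax5, 24 (92.3%) had a peak within 1000 bp of a start, beside 8369 of all 22367 protein-coding genes (37.4%). All 26 had one in the gene window, beside 51.9% of all genes. The highest scores at a start were 1763.98 at Spib, an ETS factor of B cells, 1368.35 at Plekha2, an adaptor, 1041.67 at Id3, an inhibitor of E proteins, 837 at Bach2, a repressor of plasma cell fate, and 734.52 at Cplx2. The genes without a peak at a start were Fcer2a, which encodes CD23, with 1 peak of 896.61 in its window, and Vpreb3, with 2 of at most 477.99. At Irf8, an interferon regulatory factor, the peak at the start scored 93.84, with another of 1318.32 in the window.

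The start peaks of these genes rarely held the exact core. Of the 33 peaks at their starts, 3 (9.09%) held either core word anywhere, and none in the centre, while 20.1% of all peaks within 1000 bp of a start held one somewhere and 7.48% in the centre. The longer word was in 2 of the 33, at Ikzf3, which encodes Aiolos, and at Spib, and it is shown for these with the word in capitals.
Ikzf3 (chr11:98407438-98407467, + strand): ccaacttcCAGATTTGCCTGACacggaagg
Spib (chr7:51789733-51789762, + strand): gcccagccCAGGTGGGCCTGACctccgact
The peaks scored 266.93 and 1763.98. In both, the place of the variable base within the core was taken by neither G nor A but C.

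Of the 26 genes of B cell receptor signalling, 22 had a peak at a start and 25 in the window. The highest at a start were Bcl10 (1415.68), Sykb (1372.25) and Lyn (1275.1), which encode a signalling adaptor and 2 kinases. Pik3ap1, an adaptor for PI3-kinase, had 1085.41. Btk and Bank1 were among those with peaks in the window but not at a start, and Vav1 had none in either. Of 31 B lineage transcription factors measured, 30 had a peak at a start, from 1763.98 at Spib, 1205.35 at Tcf4, which encodes E2-2, 1179.31 at Klf2 and 1041.67 at Id3 to 103.5 at Myb, 93.84 at Irf8 and 93.26 at Id2. Ikzf2, which encodes Helios, had none in its window. Pax5 itself had 7 peaks, 2 at a start, with a highest score of 821.52.

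Of the 15 markers of pre-B cells 13 (86.7%) had a peak at a start, beside 37.4% of all genes, and 15 in the window. Housekeeping genes had a like share at starts, 93.3%, so this count does not by itself identify the cells. Cd24a had the highest score at a start, 1146.07, then Blnk with 678.73, Pax5 with 469.25, Cd79a with 449.59 and Rag1 with 424.73. Rag1, one of the recombinase genes, held 3 peaks at its starts. Dntt, the gene for terminal transferase, had 2 peaks in the window and none at a start, as did Vpreb3. The surrogate light chain genes Vpreb1 and Igll1 are neighbours, and the highest peak in both windows scored 1163.11, with 160.86 and 248.29 at their starts.

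The genes listed as repressed by Pax5 had shares near those of all genes. Of 13, 6 had a peak at a start (46.2%, beside 37.4% of all genes) and 8 in the window (61.5%, beside 51.9%), and in the 50% of peaks with the highest scores 2 had one at a start. Flt3, a receptor of progenitors, had 473.91 at a start, Notch1 361.32, Sdc1 203.1, Prdm1 151.69, Xbp1 145.1 and Capn2 111.28. Ccl3 and Fcer1g had 1 peak each in the window, and Csf1r, Cd28, Ccr2, Igj and Emb had none. The median of the highest score at a start was 177.4 for this list, 385.1 for the activated targets and 268.7 for all genes with such a peak.

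T cell markers had few peaks at starts but many near the gene. Of 21, 4 (19%) had a peak at a start, namely Lat (851.79), Cd2 (387.53), Cd5 (107.23) and Gata3 (100.01), while 15 (71.4%) had one in the window. The window share was above that of all genes, 51.9%, and the start share below that of all genes. The genes of T cell receptor and coreceptor subunits were divided: Cd3d and Cd3g shared a highest score of 417.09 in their windows, Cd4 had a peak of 136.4 and Cd247 2 of at most 135.62, while Cd3e, Cd8a and Cd8b1 had none. Among the other markers Tcf7, a T cell transcription factor, had 1 peak of 424.32, Lck 2 of at most 245.64 and Zap70 1 of 239.22, both kinases, and Thy1, Cd28 and Themis had none. Cd2 is also made by mouse pre-B cells, and its window held a peak of 1449.41.

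Markers of cells that are not lymphoid had few peaks at starts, beside the 37.4% of all genes, and were below the 51.9% of all genes in the window. Of 22 myeloid markers 1 (4.55%) had a peak at a start, Cebpb with 200.74, and 7 (31.8%) had one in the window, with the highest scores at Emr1 (750.39) and Cd68 (506.28), both macrophage markers. Of 10 erythroid markers none had a peak at a start and 1, Klf1, had one in the window, of 117.77. Of 19 genes of other tissues 1, Actn2, had a peak at a start, of 551.19, and 4 (21.1%) had one in the window.

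**Figure D5:**
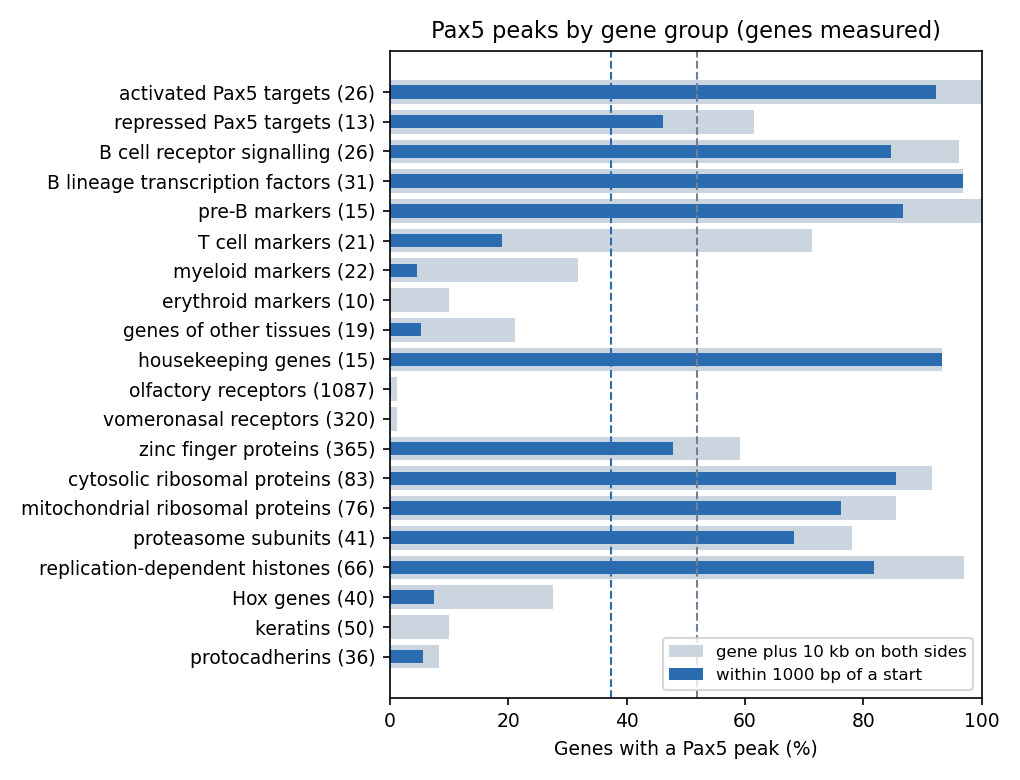
Percent of the genes of each group with a Pax5 peak (x axis); the narrow blue bars count peaks within 1000 bp of a start, the wide grey bars count peaks in the gene plus 10 kb on both sides, and the number of genes measured stands beside each name. Dashed lines of the same colours are all protein-coding genes, 37.4% and 51.9%; the groups of B cell genes and housekeeping genes lie to their right, and the olfactory and vomeronasal receptors, keratins and protocadherins at 0 to 5.56% on the blue bars.

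Housekeeping groups had shares like those of the B cell genes. Of 15 housekeeping genes 14 had a peak at a start, from 2427.51 at Ywhaz and 1829.49 at Polr2a to 97.48 at Sdha, and Pgk1 had none. Of the cytosolic ribosomal protein genes 71 of 83 (85.5%) had one, of the mitochondrial ribosomal protein genes 58 of 76 (76.3%), and of the proteasome subunits 28 of 41 (68.3%). Replication-dependent histone genes had 54 of 66 (81.8%) and the highest density of the groups, 10.6 peaks per 100 kb of gene window, beside 1.34 over all genes. Zinc finger genes were nearer to all genes, at 175 of 365 (47.9%).

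Large gene families used in other tissues had few peaks at starts. Olfactory receptor genes had 2 of 1087 with a peak at a start (0.184%), vomeronasal receptor genes 0 of 320, keratins 0 of 50, protocadherins 2 of 36 and Hox genes 3 of 40. The windows of the first 4 families held 0.0804, 0.0399, 0.437 and 0.0599 peaks per 100 kb, and those of the Hox genes 1.31, close to the 1.34 of all genes.

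Pax5 at a start went with H3K4me3 there. Of the 11768 protein-coding genes with H3K4me3 within 1000 bp of a start, 8169 (69.4%) had a Pax5 peak in the same window, and of the 10599 without it 200 (1.89%) had. Read against the 69.4%, the activated targets had Pax5 at 23 of 24 starts with H3K4me3, the B lineage factors at 30 of 31, the receptor signalling genes at 22 of 26, the housekeeping genes at 14 of 15 and the cytosolic ribosomal protein genes at 71 of 80. The mitochondrial ribosomal protein genes, at 58 of 76, the proteasome subunits, at 28 of 39, and the zinc finger genes, at 173 of 273, were near it. The repressed targets had 6 of 9, the myeloid markers 1 of 8 and the erythroid markers 0 of 5. The pre-B markers had Pax5 at 10 of 11 starts with H3K4me3, the histone genes at 49 of 58 and the T cell markers at 2 of 4. In these 3 lists Pax5 also stood at starts without H3K4me3, at 3 pre-B markers, 5 histone genes and 2 T cell markers. This was so for 1 activated target and for 0 genes of receptor signalling, B lineage factors or housekeeping. These lists are short, and no test was made of their difference from all genes.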

How the data were processed

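ChIP-seq of Pax5, H3K27ac and H3K4me3 in pre-B cells was analysed from the lists the authors deposited, 1 library each; the 3 input samples were not used. Per the study's methods, reads went to mm9 through Bowtie, which reported those having no more than 3 best positions, and MACS called peaks; the notes of the submitters name Bowtie 0.12.9 and MACS 1.4.2. MACS settings for Pax5 are not given in the sources used here. The score in the deposited Pax5 and H3K27ac lists is the authors' caller's own number, of unnamed scale. The deposited H3K4me3 list holds other values, 25 bp bins, joined here where they touch.

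Positions are mm9 (NCBIM37), with GENCODE M1. Peaks overlapping the Vκ region, from the first to the last Igkv gene, were left out. Distances run from the nearest edge to the nearest start of a protein-coding transcript, and classes use midpoints. Named genes are the 15 with most peaks, the 10 densest with at least 5 peaks, those nearest the 10 highest and 5 widest peaks and 5 largest clusters, and list members in order of score. The members and lists were chosen with earlier results of these data known, and genes outside this rule were named after their values were seen. Lists used GENCODE names or RefSeq synonyms; 2 listed genes were not matched. A few items that the rule names are not reported here. No test was run. The gene lists were written from general knowledge of these genes. Functions were tested on simulated data. Alternatives are in the closing section. Python 3.11.15, numpy 2.4.6, scipy 1.17.1, pysam 0.24.0 and matplotlib 3.10.9 were used.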

Additional observations from a re-analysis of the deposited data

How the results depend on the processing

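The main results were recomputed in 88 alternatives, each of them 1 result under 1 other setting. An alternative was called moved where its value left the 95% interval of counting over peaks or, for counts, changed by over 1.5 times. The median width was 1130 bp in the 50% of peaks with the highest scores and 976 bp without peaks in repeated sequence, a setting chosen after seeing the data. The share near starts was 48.6% at 500 bp, 53% at 2000 bp, 48.6% by midpoint, 54.4% with the starts of all transcripts, 59.6% in the higher-scoring 50% and 51.7% without repeated peaks. The median distance was 1353 bp by midpoint, 137 bp with all transcripts, 0 bp in the higher-scoring 50% and 521 bp without repeated peaks. Exons took 54.6%, introns 18.9% and intergenic sequence 26.5% when any overlap counted, so the order of the classes depends on this choice. With all annotated genes they took 29.4%, 32.4% and 38.2%, in the higher-scoring 50% 32.7%, 29% and 38.3%, and without repeated peaks intergenic sequence took 39.8%. Relative density was 1.1 per gene on chromosome 11, and on chromosome X 0.232 by covered bases, 0.402 per gene and 0.176 in the higher-scoring 50%. Clusters of 5 or more numbered 17 with gaps of at most 5 kb, 268 with 20 kb and 10 in the higher-scoring 50%. Of the 15 genes with most peaks, 0 were among the 15 densest and 8 remained in the higher-scoring 50%. The longer Pax5 word was in 4.54% of whole peaks, 2.3% of centres and 5.04% of the higher-scoring 50%, and the G form in 11.5%, 5.72% and 15.4%. In all 54 moved, among them 19 of 38 gene list counts beside the activated targets, which had 24 at starts, 26 in windows and 18 at starts in the higher-scoring 50%. With windows in place of starts the T cell markers had 15, the myeloid markers 7, erythroid markers 1, genes of other tissues 4, olfactory receptors 14, vomeronasal receptors 4, Hox genes 11 and keratins 5. At starts in the higher-scoring 50% the repressed targets had 2, T cell markers 2, myeloid markers 0, housekeeping genes 9, zinc finger genes 96, cytosolic ribosomal proteins 44, mitochondrial ones 28, proteasome subunits 17, histones 35, Hox genes 1 and protocadherins 0. Histone mark overlaps, base composition and the words of other factors were not recomputed under other settings. No paired analysis was possible because a single library stands behind every list. Depth is unknown, so a gene without a peak may still bind Pax5.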

Other observations

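Genes of small and noncoding RNAs were also looked at. Of 1273 lincRNA genes, 449 (35.3%) had a Pax5 peak within 1000 bp of a start, beside 38.1% of protein-coding genes when every annotated transcript is counted, while 101 of 5200 pseudogenes (1.94%) had one. Of 1575 annotated miRNA genes 95 (6.03%) had one within 1000 bp of the annotated 5′ end. They include Mir23a, Mir27a and Mir24-2, which lie together on chromosome 8 and share a peak of 463.81, 27472 bp from any protein-coding start, Mir142 on chromosome 11, a miRNA of blood cells, with a peak of 314.14, and Mir17 on chromosome 14, the first of the Mir17 cluster, with one of 119.91. These were named after their values were seen.

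Some peaks shared both width and score with another peak. This was so for 338 peaks (2.19%), and in 57 of these (16.9%) most of the sampled runs of 31 bases lay at 2 or more places, beside 616 (4%) of all peaks. In the cluster of 9 repeated peaks on chromosome 8, the scores stayed between 98.18 and 321.69.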
